A study of Mus musculus with 23 samples.

Results

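The genes described here are 42 genes of DNA replication and deoxynucleotide synthesis, chosen by symbol from a fixed list of replication proteins, enzymes of DNA precursor supply and regulators of S phase entry. All 42 were found in both of the authors' deposited tables, which hold 22517 named genes each, and all 42 were tested by the authors in both. RNA was sequenced from epithelium of the proximal intestine of adult mice of mixed B6;129 background, in 3 groups of 3 libraries. Wild-type villus came from mice with floxed Eed alleles and no Cre (EedF/F; Cre-). Eed-null villus came from EedF/F; Villin-CRE mice, in which the Villin promoter drives Cre in the gut epithelium, so that Eed, a core subunit of the Polycomb repressive complex PRC2, is deleted there. Intestinal stem cells (ISC) came from Eed+/+; Lgr5-EGFP-IRES-CREERT2 mice and were sorted for high GFP, which in these mice is driven by Lgr5. Mice of all 3 groups had received 1 to 2 mg tamoxifen on 5 consecutive days. ISC had been treated with TrypLE for 45 minutes at 37 °C and sorted, whereas villus epithelium was frozen after EDTA alone. Between ISC and villus, cell type, genotype and handling therefore cannot be told apart. Eed-null villus differed from its control in the presence of Cre as well as in Eed, and these cannot be told apart either. The 14 libraries for chromatin and its input are not analysed here.

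Each replication origin is first bound by the origin recognition complex (ORC), on which Cdc6 and Cdt1 load the ring-shaped MCM2-7 helicase. At the start of S phase Cdc45 and the GINS complex turn this ring into an active helicase, primase and DNA polymerase alpha lay down primers, and polymerases delta and epsilon extend them on the sliding clamp PCNA. In the intestine, DNA synthesis takes place in the crypts, among stem cells and their dividing daughters, and ceases as cells move onto the villus. Many genes of this set are known targets of E2F transcription factors, which act at the passage from G1 into S phase.

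The promoters of members were searched for the letters of an E2F site. A link between these letters and the differences between ISC and villus described below was not tested. RefSeq promoter entries of build GRCm38.p6, 250 bases before to 50 bases after a start site, were found for 34 of 42 members, with 40 entries in all. No entry was found for Mcm4, Gins1, Gins2, Gins4, Prim2, Pole, Rfc2 and Ccne2. The following 4 spellings were searched on both strands, TTTCCCGC, TTTCGCGC, TTTGCCGC and TTTGGCGC, with overlapping matches counted separately. At least 1 of them was present in 32.5% of the 40 member promoters and in 2.26% of all 32851 promoters. Counted by gene, 13 of 34 members held one, namely Mcm3, Mcm5, Mcm6, Mcm7, Orc1, Cdc6, Cdt1, Gins3, Pola1, Pold1, Pole2, Rfc3 and Lig1, against 2.6% of all genes. The promoters of 5 members are printed here from 200 bases before to 50 bases after the start site, on the gene's own strand, with the matched letters in capitals. Mcm3, Pold1 and Mcm5 were the 3 members with the largest ISC excess (as a difference of log2(RPKM + 1)) among those holding the letters, Rfc4 was the member that missed the authors' threshold, and Mcm2 had one of the largest excesses without these letters. The coordinates on GRCm38.p6 are chr1:20820263-20820512 (minus strand) for Mcm3, chr7:44548766-44549015 (minus strand) for Pold1, chr8:75109309-75109558 (plus strand) for Mcm5, chr16:23127681-23127930 (minus strand) for Rfc4 and chr6:88898731-88898980 (minus strand) for Mcm2.
Mcm3: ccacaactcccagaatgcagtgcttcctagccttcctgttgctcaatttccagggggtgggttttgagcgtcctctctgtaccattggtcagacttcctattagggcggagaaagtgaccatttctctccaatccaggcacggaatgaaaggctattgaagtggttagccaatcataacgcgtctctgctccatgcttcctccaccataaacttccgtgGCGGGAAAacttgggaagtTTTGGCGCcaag
Pold1: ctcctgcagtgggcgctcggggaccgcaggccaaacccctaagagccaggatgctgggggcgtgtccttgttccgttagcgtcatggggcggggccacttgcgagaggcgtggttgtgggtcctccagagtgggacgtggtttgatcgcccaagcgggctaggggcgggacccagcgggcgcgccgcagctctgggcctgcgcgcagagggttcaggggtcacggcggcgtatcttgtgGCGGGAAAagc
Mcm5: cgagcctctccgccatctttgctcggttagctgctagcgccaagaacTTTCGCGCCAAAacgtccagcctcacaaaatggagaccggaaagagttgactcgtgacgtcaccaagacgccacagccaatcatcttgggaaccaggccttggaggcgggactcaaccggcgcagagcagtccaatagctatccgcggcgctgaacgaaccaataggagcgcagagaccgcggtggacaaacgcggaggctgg
Rfc4: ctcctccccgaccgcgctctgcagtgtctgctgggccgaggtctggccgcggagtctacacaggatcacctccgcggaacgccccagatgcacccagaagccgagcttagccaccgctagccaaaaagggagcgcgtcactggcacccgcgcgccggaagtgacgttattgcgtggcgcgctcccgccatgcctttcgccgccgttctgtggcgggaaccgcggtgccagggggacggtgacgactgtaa
Mcm2: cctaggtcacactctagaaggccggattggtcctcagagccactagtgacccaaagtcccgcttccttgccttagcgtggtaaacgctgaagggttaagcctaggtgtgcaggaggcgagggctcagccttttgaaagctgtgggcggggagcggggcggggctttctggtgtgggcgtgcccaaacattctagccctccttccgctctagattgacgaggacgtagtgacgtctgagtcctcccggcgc
In Mcm3 the letters TTTCCCGC on the opposite strand and TTTGGCGC on the gene's strand both lie after the start site, and in Pold1 a single TTTCCCGC on the opposite strand does. In Mcm5 TTTCGCGC on the gene's strand and TTTGGCGC on the opposite strand overlap, so the capitals run together. Such a match is a description of the letters and not of a bound site, and the absence of a match in Mcm2 or Rfc4 says only that these spellings are not in the window.

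Other promoter letters were spread differently. CCAAT, the core of the NF-Y box, was found in 20 of 34 members (58.8%) against 41.1% of all genes. TTTGAA, the core of the cell cycle homology region (CHR) of genes expressed in G2 and mitosis, was found in 5 of 34 members (14.7%) against 20.2% of all genes. TATAAA, the TATA box, was found in 3 of 34 members (8.82%) against 15.7% of all genes. For comparison, a list of 30 mitosis genes had promoter entries for 25, of which 1 held the E2F letters, 19 held CCAAT, 18 held TTTGAA and none held TATAAA.

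**Figure D1:**
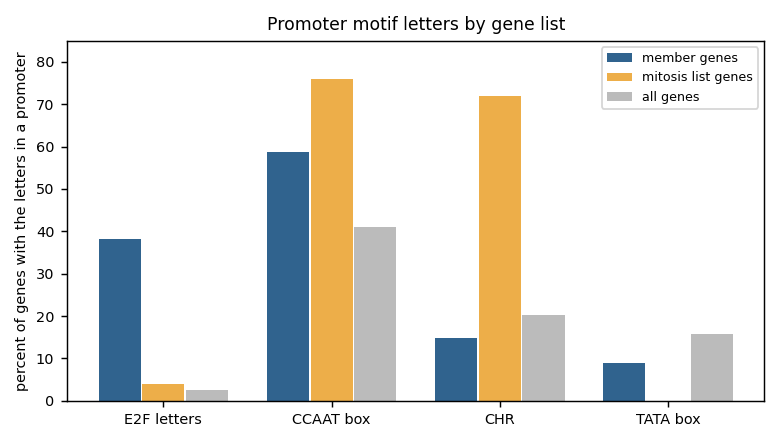
Percentage of genes with each set of letters in any of their RefSeq promoters (250 bases before to 50 after the start site, both strands), for the members, the mitosis list and all genes. The E2F letters stand at 38.2% of member genes, 4% of mitosis genes and 2.6% of all genes, whereas TTTGAA (CHR) stands at 14.7%, 72% and 20.2%.

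The expression values are RPKM, reads scaled to gene length and library size, so levels can be compared between genes. The authors' deposited tables give 1 value per group, which leaves the depth and the spread of the 3 libraries unknown, and the authors' q, a p-value adjusted over all tested genes, is the measure of error. The word called stands below for a gene with a completed test by the authors and a q of at most 0.05. Folds are ratios of the deposited values. The tables were scaled separately, so each comparison is made within its own table. In such bulk samples fewer cells of a type and less RNA per cell cannot be told apart. As a check of the labels, Eed stood at 3.00 RPKM in Eed-null against 9.17 RPKM in wild-type villus, and the authors' deposited table lists q = 6.29e-06. Of 8 enterocyte markers, 7 were called higher in villus than in ISC, while Apoa4 is listed at 0 in wild-type villus. All 6 markers of stem cells were called for ISC. Of 4 Paneth cell markers, Mmp7 (5.71-fold) and Itln1 (2.73-fold) were called for ISC. Lyz1 and Defa24 are listed at 0 in ISC but, like Apoa4, were not called, so these entries are not read as absence. Wild-type villus also held RNA of Paneth cell markers, with Defa24 at 4334, Itln1 at 1508, Lyz1 at 1021 and Mmp7 at 56.3 RPKM. Olfm4 of the stem cell list stood at 110 RPKM in wild-type villus. Of 4 goblet cell markers Tff3 and Clca3 were called for villus. The mesenchymal list summed to 7.75 RPKM in ISC, nearly all of it Vim at 7.72 RPKM, which was called for ISC (5.66-fold), and to 1.70 RPKM in villus. The endothelial list summed to 0.138 RPKM in ISC and 0.183 RPKM in villus. Leukocyte markers were present, with a summed level of 296 RPKM in wild-type villus and 261 RPKM in ISC over 9 genes, but Cd74 alone gave 181 and 235 RPKM of these sums. Without it the other 8 genes summed to 115 RPKM in villus against 26.1 RPKM in ISC, with 6 of them called higher in villus. The part of these other cells in the members' values was not tested.

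Replication genes were higher in ISC than in wild-type villus throughout the set. All 42 members had the higher value in ISC and 41 were called higher there, whereas 32.3% of all 13007 tested genes were called higher in ISC and 30.5% higher in villus. The median ISC excess of the members was 5.55-fold, with a range of 1.70-fold to 11.3-fold. As a difference of log2(RPKM + 1), the median was 2.10 for the members and 0.06 for all tested genes. No member was at 0 in either group, and the lowest level was 0.515 RPKM, of Orc1 in villus. In villus the members stood at a median of 18% of their ISC level, from 8.88% to 58.7%.

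**Figure D2:**
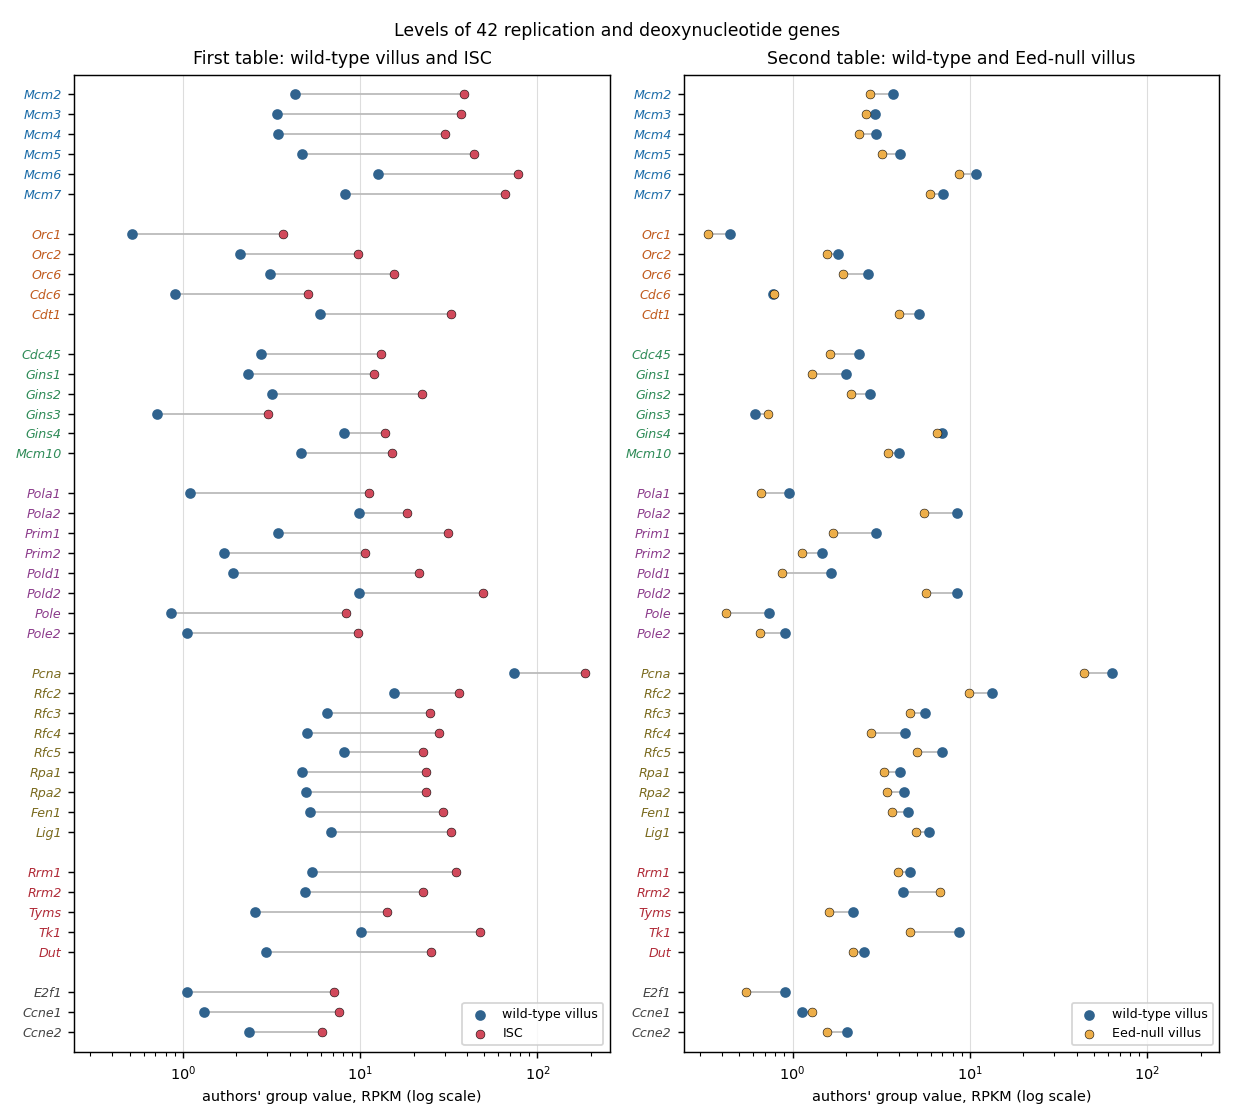
Authors' group values in RPKM on a log axis for the 42 members, coloured by role, with wild-type villus and ISC of the first table on the left and wild-type and Eed-null villus of the second table on the right. Every ISC point lies to the right of its villus point, whereas 38 of 42 Eed-null points lie to the left of wild-type villus by small distances.

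The MCM2-7 helicase genes showed a large and even ISC excess. Mcm3 had 37.0 RPKM in ISC against 3.41 RPKM in villus (10.9-fold), Mcm5 43.6 and 4.69 RPKM (9.30-fold) and Mcm2 38.7 and 4.27 RPKM (9.07-fold). Mcm4 had 30.3 and 3.44 RPKM (8.81-fold), Mcm7 65.9 and 8.19 RPKM (8.05-fold) and Mcm6 77.5 and 12.5 RPKM (6.19-fold). All 6 have q listed as 0 in the authors' deposited table. Mcm6 was the most abundant of these subunits in both groups. The highest and lowest subunit differed 2.56-fold in ISC and 3.67-fold in villus. On build mm9 Mcm3 lies between 20793094 and 20810294 on chromosome 1 and Mcm5 between 77633426 and 77652338 on chromosome 8, by the files' coordinates. The locus entry of Mcm7 also holds Mir106b, Mir25 and Mir93, microRNA genes of an Mcm7 intron, and the libraries do not mark strand.

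Genes that choose and license origins were all called higher in ISC, at levels that differed widely between genes. Orc1, the large ATPase subunit of ORC, had 3.69 RPKM in ISC against 0.515 RPKM in villus (7.17-fold, q = 1.27e-11 in the authors' deposited table). Orc2 had 9.78 and 2.10 RPKM (4.66-fold) and Orc6 15.5 and 3.09 RPKM (5.03-fold), so Orc1 was the least abundant of the 3 in both groups. Cdc6, which loads the helicase, had 5.08 RPKM in ISC against 0.898 RPKM in villus (5.65-fold). Its partner Cdt1 was more abundant, at 32.6 and 5.96 RPKM (5.47-fold).

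The genes that activate the helicase differed more widely among themselves. Cdc45 had 13.1 RPKM in ISC against 2.77 RPKM in villus (4.72-fold), and Mcm10, a factor of origin firing, 15.1 and 4.62 RPKM (3.28-fold). Among the subunits of GINS, Gins2 had 22.3 and 3.19 RPKM (6.97-fold), Gins1 12.0 and 2.34 RPKM (5.11-fold) and Gins3 3.03 and 0.718 RPKM (4.23-fold). Gins4 had 13.7 RPKM in ISC against 8.06 RPKM in villus. Its 1.70-fold excess was the smallest of all members (q = 0.0158 in the authors' deposited table), and the call was lost at a threshold of 0.01. In villus Gins4 was therefore the most abundant GINS gene, 11.2-fold above Gins3, whereas in ISC Gins2 led. Gins2 shares a locus entry with Gse1, which had 10.2 RPKM in ISC against 12.6 RPKM in villus, and its q of 0.00595 in the authors' deposited table was higher than that of the members with a like fold.

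The polymerase genes held both the largest and nearly the smallest excess. Pold1, the catalytic subunit of polymerase delta, had 21.5 RPKM in ISC against 1.91 RPKM in villus (11.3-fold, q listed as 0 in the authors' deposited table). Pola1, the catalytic subunit of polymerase alpha, had 11.2 and 1.1 RPKM (10.1-fold), and Pole, that of polymerase epsilon, 8.33 and 0.853 RPKM (9.76-fold). The 3 catalytic subunits thus stood at 8.88%, 9.90% and 10.2% of their ISC level in villus.

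Accessory subunits were less uniform. Pole2 had 9.67 RPKM in ISC against 1.05 RPKM in villus (9.2-fold), close to Pole in level in both groups. Pold2 had 49.3 and 9.86 RPKM (5.00-fold), so that Pold1 reached 0.437 times the level of Pold2 in ISC and 0.194 times in villus. Pola2, the B subunit of polymerase alpha, had 18.4 and 9.85 RPKM (1.87-fold, q = 0.00215 in the authors' deposited table). Pola1 was at 0.606 times the level of Pola2 in ISC and 0.112 times in villus. No test of these ratios is possible with 1 value per group. The primase genes Prim1 and Prim2 had 31.5 against 3.43 RPKM (9.17-fold) and 10.6 against 1.70 RPKM (6.26-fold).

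Clamp, clamp loader, single-strand binding and strand-joining genes were all higher in ISC by value, and 8 of 9 were called. Pcna, the sliding clamp, was the most abundant member in both groups, at 186 RPKM in ISC against 73.3 RPKM in villus (2.54-fold, q = 5.35e-08 in the authors' deposited table). The clamp loader genes had 35.9 and 15.5 RPKM for Rfc2 (2.32-fold), 24.6 and 6.46 RPKM for Rfc3 (3.81-fold) and 22.5 and 8.07 RPKM for Rfc5 (2.79-fold). Rfc4 had 27.9 RPKM in ISC against 5.02 RPKM in villus, a 5.56-fold difference that was not called (q = 0.113 in the authors' deposited table). In the annotation the locus entry of Rfc4 also holds Eif4a2, which had 100 RPKM in ISC against 132 RPKM in villus. The part of this overlap in the value of q was not tested. The single-strand binding protein genes Rpa1 and Rpa2 ran at nearly equal levels, with 23.6 and 23.4 RPKM in ISC and 4.70 and 4.92 RPKM in villus. Fen1, the flap endonuclease that trims Okazaki fragments, had 29.3 and 5.21 RPKM (5.61-fold), and Lig1, the ligase that seals them, 32.4 and 6.86 RPKM (4.73-fold).

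Deoxynucleotide supply genes were all called higher in ISC. Dut, the dUTPase that keeps uracil out of DNA, had 25.2 RPKM in ISC against 2.94 RPKM in villus (8.58-fold, q = 3.91e-15 in the authors' deposited table). The ribonucleotide reductase genes Rrm1 and Rrm2 had 34.7 and 22.6 RPKM in ISC and 5.32 and 4.86 RPKM in villus (6.52-fold and 4.65-fold). Tyms, thymidylate synthase, had 14.1 and 2.54 RPKM (5.55-fold), and Tk1, the S phase thymidine kinase, 47.3 and 10.1 RPKM (4.68-fold). Tk1 shares its locus entry with Afmid, which had 2.49 RPKM in ISC against 5.96 RPKM in villus.

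Regulators of S phase entry followed at lower levels. E2f1 had 7.14 RPKM in ISC against 1.05 RPKM in villus (6.77-fold) and cyclin E1 (Ccne1) 7.55 and 1.31 RPKM (5.77-fold). Cyclin E2 (Ccne2) had 6.12 and 2.36 RPKM (2.59-fold, q = 0.00163 in the authors' deposited table). Ccne1 was thus 1.23 times as abundant as Ccne2 in ISC and 0.553 times in villus. Ccne2 shares its locus entry with Ints8, and Pold2 and Lig1 also share entries, with Aebp1 and 6330408A02Rik, so 7 of 42 members share one in all. Without them 35 of 35 remaining members were called higher in ISC.

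The villus level as a share of the ISC level can be set beside that of stem cell markers. No RNA group was sorted for the dividing daughters of stem cells. Whether the villus epithelium held some of them, and their part in these shares, was not tested. By role, the median villus level was 11.2% of ISC for the helicase core, 10.9% for polymerases and primase, 18% for deoxynucleotide synthesis, 18.3% for origin licensing, 17.3% for G1/S control, 21.1% for the clamp, loader and Okazaki group and 22.4% for helicase activation. The mitosis list had a median of 22%, with a range of 13.5% to 32.6%. Stem cell markers had a median of 5.21%, and Lgr5, the receptor that marks these cells, stood at 18.3 RPKM in ISC against 0.607 RPKM in villus. The stem cell markers ranged from 3.32% for Lgr5 to 17.2% for Axin2, a share above that of each of the 6 helicase core genes.

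**Figure D3:**
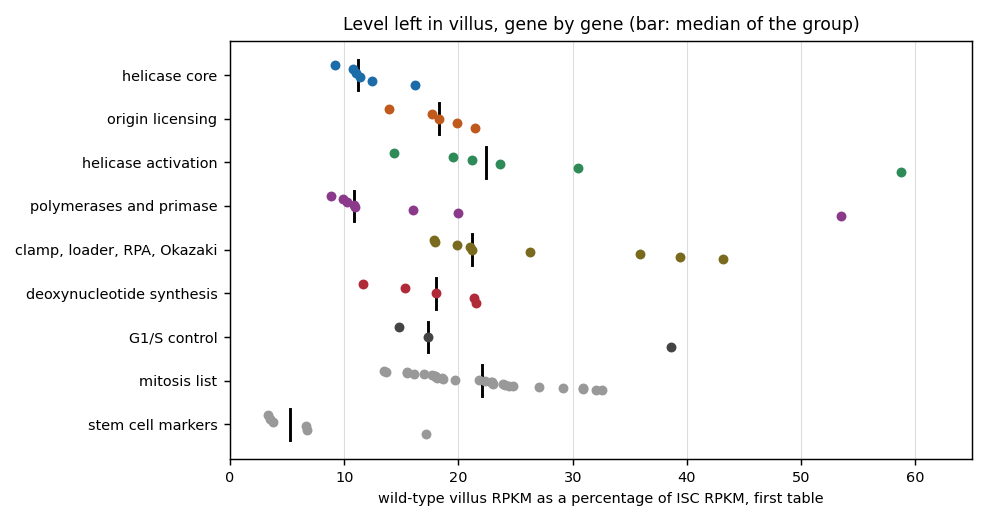
Wild-type villus RPKM as a percentage of ISC RPKM for each member by role, for 30 mitosis genes and for 6 stem cell markers, with the median of each group as a bar. Helicase core and polymerase genes cluster near 11%, with Pola2 (53.5%) and Gins4 (58.7%) far to the right of their groups.

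Other genes of the pathway mostly shared the direction. Of 33 other fork and origin factors, the calls were 25 for ISC and 1 for villus, and of 12 genes of replication-coupled chromatin all 12 were called higher in ISC. The fork protection genes Timeless and Tipin were 11.4-fold and 9.75-fold higher in ISC, and the PCNA-binding factor gene 2810417H13Rik (now Pclaf, sharing its locus entry with Trip4) was 6.98-fold higher. Uhrf1, which guides maintenance methylation to new DNA, was 10.2-fold, the chromatin remodeller Hells 9.34-fold and the chromatin assembly factor Chaf1b 8.85-fold higher. Rfc1, the large clamp loader subunit, had 19.0 RPKM in ISC against 4.01 RPKM in villus. The exception was Pold4, the small subunit of polymerase delta, with 7.91 RPKM in ISC against 30.1 RPKM in villus (q = 3.98e-08 in the authors' deposited table).

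Nucleotide genes outside the set numbered 31, with 24 called higher in ISC and 4 higher in villus. Impdh2, the rate-limiting enzyme of guanine nucleotide synthesis, was 10.5-fold, Paics of purine synthesis 10.0-fold (sharing a locus entry with Ppat) and Shmt1 of one-carbon metabolism 8.16-fold higher in ISC. Samhd1, Cmpk1 and Adss were among the genes called higher in villus. Samhd1, which degrades deoxynucleotides, had 41.4 RPKM in villus against 12.4 RPKM in ISC (q = 7.59e-14 in the authors' deposited table). Rrm2b, the reductase subunit used outside S phase, went against Rrm2, with 1.5 RPKM in villus against 0.753 RPKM in ISC (q = 0.0304 in the authors' deposited table). Rrm2 was 30.0 times as abundant as Rrm2b in ISC and 3.24 times in villus. Tk2, the mitochondrial thymidine kinase, had 2.51 RPKM in ISC against 1.34 RPKM in villus (q = 0.0401 in the authors' deposited table).

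The further lists divided more. Mitochondrial DNA and precursor genes numbered 11, with 8 called for ISC and 2 for villus, with Peo1 (now Twnk), the mitochondrial helicase, 5.10-fold, Mgme1 4.56-fold and Ssbp1 2.94-fold higher in ISC, and Polg2 higher in villus. Among 31 other G1/S genes the calls were 19 for ISC and 2 for villus. Myc was 8.33-fold, Cdk4 6.15-fold and Cks1b 6.79-fold higher in ISC, and cyclin A2 (Ccna2, sharing a locus entry with Exosc9) 5.48-fold higher. Rb1, the retinoblastoma gene that restrains E2F, had 20 RPKM in villus against 5.59 RPKM in ISC but shares its entry with Lpar6, and Cdc25a had 22.7 and 15.6 RPKM. Of 10 repair and translesion polymerase genes, the calls were 6 for ISC and none for villus, with the largest differences of log2(RPKM + 1) for Poli (8.43-fold), Rad18 (5.11-fold) and Rev3l (2.90-fold). All 30 mitosis genes were called higher in ISC, with a median excess of 4.54-fold, and the largest differences of log2(RPKM + 1) were those of Mki67, Bub1b and Cdc20.

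**Figure D4:**
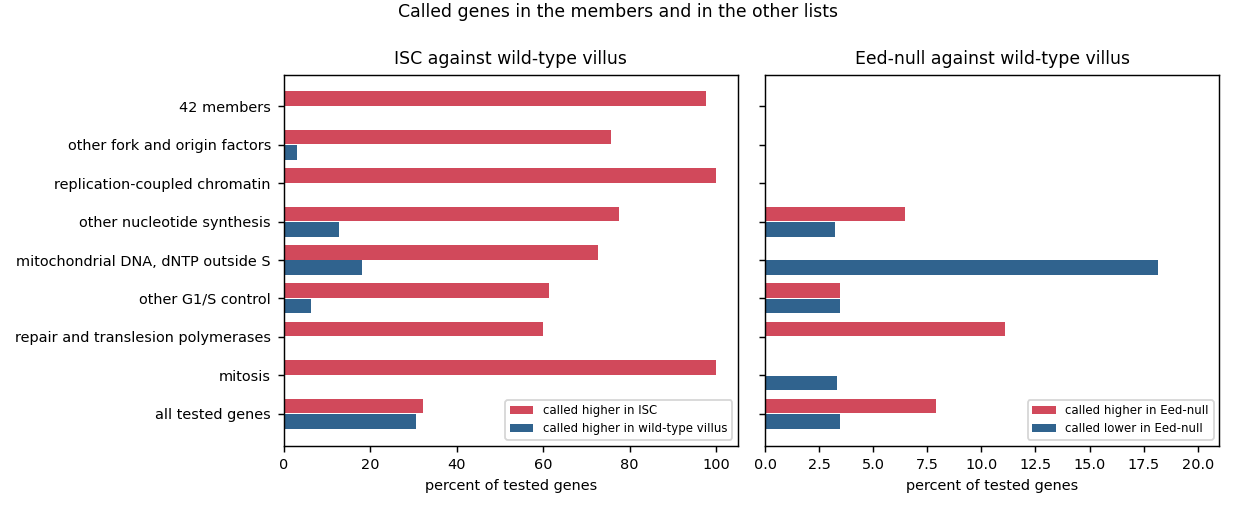
Percentage of tested genes called at q at or below 0.05 in each direction, for the members, the other lists and all tested genes, with the ISC comparison on the left and the Eed-null comparison on the right (x scales differ). In the right panel the members have no bar in either direction, while all tested genes stand at 7.9% higher and 3.46% lower.

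Eed-null villus was compared with the same wild-type villus libraries, and no member passed the authors' threshold. None of 42 was called lower and none higher in Eed-null villus, whereas 3.46% of 12525 tested genes were called lower and 7.9% higher. At an unadjusted p under 0.05, 5 members were lower and 1 was higher, against 8.82% and 12.3% of all tested genes in the authors' deposited table. No test other than the authors' was run. The values of 38 of 42 members were nevertheless lower in Eed-null villus, against 57.7% of all tested genes. The median log2 ratio was -0.37 for the members and -0.08 for all tested genes. Among all genes that reached 1 RPKM in each group the median log2 ratio was -0.10, and relative to that value 37 members were lower, with a median of -0.26.

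The size of difference that this table could call bears on these counts. Among tested genes between 1.86 and 5.45 RPKM in wild-type villus, the middle range of the members, 0 of 607 genes lower by 1.2-fold to 1.5-fold were called. In that range 12 of 200 genes lower by 1.5-fold to 2-fold were called, and 38 of 51 genes lower by 2-fold to 3-fold. No member was lower by 2-fold or more, and 8 were lower by 1.5-fold or more. Of these, Tk1 and Pola2 lay above that range and Pold1, Pole and E2f1 below it, where call rates were not counted. In the same range 63.7% of 2448 tested genes had lower values in Eed-null villus, with a median log2 ratio of -0.13, and the 20 members there had 19 lower values and a median of -0.35.

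**Figure D5:**
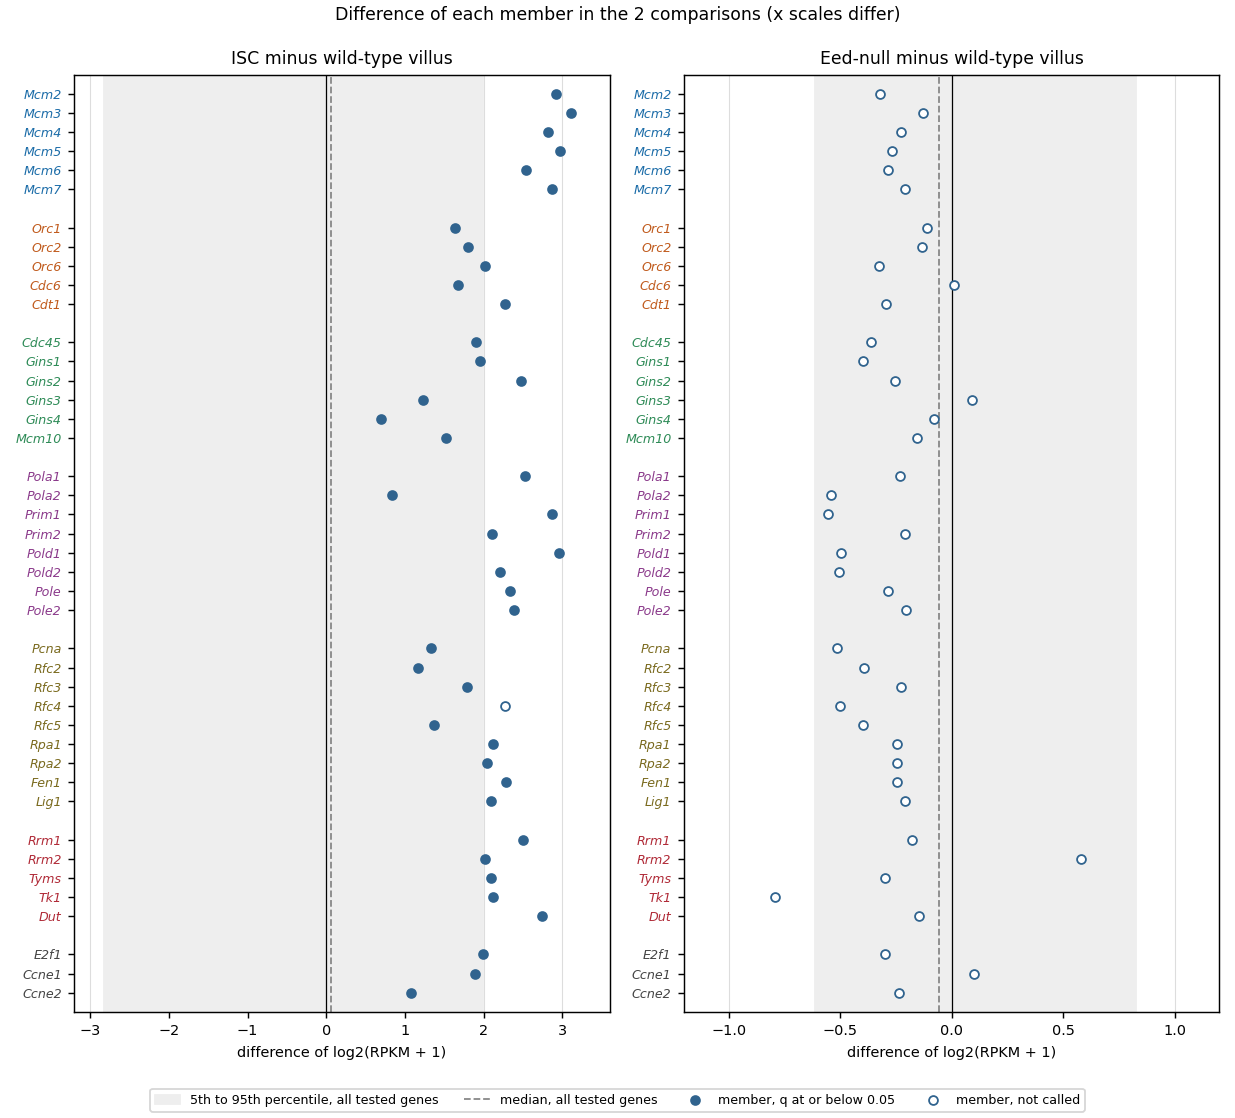
Difference of log2(RPKM + 1) of each member, ISC minus wild-type villus on the left and Eed-null minus wild-type villus on the right, with the 5th to 95th percentile (grey) and the median (dashed) of all tested genes. Filled points were called, which holds for 41 members on the left and none on the right, where Rrm2 and Tk1 lie farthest from 0 in opposite directions.

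The lowest values relative to wild-type villus lay among the polymerase genes and Tk1. Tk1 had 4.60 RPKM in Eed-null against 8.68 RPKM in wild-type villus, 1.89-fold apart (q = 0.135 in the authors' deposited table). Pold1 had 0.876 against 1.65 RPKM (1.88-fold), with the smallest q of the set, 0.105 in the authors' deposited table. Prim1 had 1.69 against 2.95 RPKM (1.75-fold, q = 0.206 in the authors' deposited table) and Pole 0.422 against 0.734 RPKM (1.74-fold, q = 0.18 in the authors' deposited table). All 8 polymerase and primase genes had lower values, with a median of 1.52-fold. The others were Pola2 (5.51 against 8.48 RPKM), Pold2 (5.68 against 8.49 RPKM), Pola1 (0.660 against 0.950 RPKM), Pole2 (0.654 against 0.905 RPKM) and Prim2 (1.13 against 1.46 RPKM). On mm9 Tk1 lies between 117676832 and 117701222 on chromosome 11 and Pold1 between 51788113 and 51804185 on chromosome 7.

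Pcna had 43.9 RPKM in Eed-null against 63.1 RPKM in wild-type villus (1.44-fold lower), and the authors' deposited table lists q = 0.145. The remaining 8 genes of the clamp, loader and Okazaki group were 1.19-fold (Lig1) to 1.56-fold (Rfc4) lower, and Rfc2 had 9.91 against 13.3 RPKM. The helicase genes lay close together. Mcm2 was 1.34-fold lower, at 2.74 against 3.67 RPKM, and Mcm3 1.13-fold lower, at 2.60 against 2.93 RPKM, with Mcm4 (2.38 against 2.96 RPKM), Mcm5 (3.18 against 4.03 RPKM), Mcm6 (8.65 against 10.8 RPKM) and Mcm7 (5.96 against 7.05 RPKM) between them. The smallest q of these 6 was 0.47 in the authors' deposited table.

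Licensing and activation genes mostly had lower values in Eed-null villus, 4 of 5 and 5 of 6 genes, by at most 1.39-fold (Orc6) and 1.56-fold (Gins1). Orc6 had 1.92 against 2.66 RPKM, Orc1 0.335 against 0.443 RPKM, Orc2 1.56 against 1.81 RPKM and Cdt1 3.99 against 5.13 RPKM in Eed-null and wild-type villus. Cdc6 was at 0.786 and 0.773 RPKM. Gins1 had 1.29 against 2.01 RPKM, Cdc45 1.63 against 2.38 RPKM, Gins2 2.14 against 2.75 RPKM and Mcm10 3.46 against 3.97 RPKM. Gins3 had the higher value in Eed-null villus, 0.724 against 0.618 RPKM, and Gins4 had 6.52 against 6.94 RPKM, which turns to a higher value once the median gene is set to 0. The smallest q of these 11 genes was 0.576 in the authors' deposited table.

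Rrm2 had the largest excess in Eed-null villus of the 4 members with higher values there. It had 6.74 RPKM there and 4.18 RPKM in its control, a 1.61-fold excess that was not called (p = 0.0219 and q = 0.138 in the authors' deposited table). Its partner Rrm1 had 3.94 against 4.58 RPKM, so Rrm1 was 1.1 times as abundant as Rrm2 in wild-type and 0.584 times in Eed-null villus. Rrm2b, a known p53 target, had 0.934 against 1.29 RPKM (q = 0.522 in the authors' deposited table). The remaining precursor genes Tyms and Dut had 1.59 against 2.19 RPKM and 2.19 against 2.53 RPKM. E2f1 had 0.548 against 0.907 RPKM (1.66-fold lower, q = 0.37 in the authors' deposited table), Ccne2 1.57 against 2.03 RPKM and Ccne1 1.28 against 1.13 RPKM. On mm9 Rrm2 lies between 25393118 and 25399011 on chromosome 12.

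Calls among other pathway genes were few. Among 33 fork and origin factors and 12 genes of replication-coupled chromatin none was called in either direction, and 30 and 12 of them had lower values. At an unadjusted p under 0.05, 5 of the fork and origin factors and none of the chromatin genes were lower, with none higher, in the authors' deposited table. Of 31 other nucleotide genes, Impdh1 and Prps2 were called higher and Prps1 lower, shares near the 7.9% and 3.46% of all tested genes. Prps1 and Prps2, which make the ribose phosphate precursor of nucleotides, went opposite ways, from 4.61 to 1.79 RPKM and from 3.03 to 5.41 RPKM (q = 0.00162 and q = 0.0282 in the authors' deposited table). Prps1 was 1.52 times as abundant as Prps2 in wild-type and 0.330 times in Eed-null villus. Impdh1 rose 2.48-fold, from 0.934 to 2.32 RPKM (q = 0.00908 in the authors' deposited table), while Impdh2 had 12.9 against 16.6 RPKM (q = 0.473 in the authors' deposited table).

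Among other G1/S genes, cyclin D2 (Ccnd2, sharing its locus entry with 9330179D12Rik) rose 2.31-fold, from 13.7 to 31.6 RPKM (q = 6.43e-06 in the authors' deposited table). E2f8, an atypical E2F that represses S phase genes, fell from 2.27 to 1.13 RPKM (q = 0.0331 in the authors' deposited table). Of 11 mitochondrial and precursor genes, 2 were called lower. Tfam, which packages mitochondrial DNA, fell from 7.58 to 4.46 RPKM, and Ccdc111 (now Primpol, sharing its entry with Mlf1ip), a primase-polymerase, fell from 4.11 to 2.30 RPKM (q = 0.0274 and q = 0.0422 in the authors' deposited table). Polk, a translesion polymerase, rose 3.12-fold, from 1.25 to 3.91 RPKM (q = 6.28e-06 in the authors' deposited table). In the mitosis list all 30 values were lower in Eed-null villus, with a median of 1.44-fold, and Mki67 was called lower, at 3.85 against 6.18 RPKM (q = 0.0382 in the authors' deposited table).

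Markers of several cell types also differed in this comparison. The summed level of 6 stem cell markers was 70.8 RPKM in Eed-null against 123 RPKM in wild-type villus. Most of that sum is Olfm4, which fell from 94.5 to 40.6 RPKM (q = 6.18e-06 in the authors' deposited table), while Lgr5 had 0.592 against 0.523 RPKM and was not called. Among T cell genes Gzmb fell from 18.7 to 10.6 RPKM (q = 0.0237 in the authors' deposited table). The leukocyte list summed to 371 RPKM in Eed-null against 255 RPKM in wild-type villus over 9 genes. Of this Cd74 gave 304 against 156 RPKM, and the other 8 genes summed to 67.4 against 99.1 RPKM. The goblet cell list summed to 7894 against 5033 RPKM, and Muc2, a gel-forming mucin, rose from 75.3 to 126.7 RPKM (q = 0.0346 in the authors' deposited table). Of the enterocyte markers only Lct, lactase, was called, falling from 328 to 168 RPKM (q = 0.0165 in the authors' deposited table). The list summed to 31755 against 34029 RPKM, but Apoa4, which was not called, is listed at 0 in wild-type villus and 7256 RPKM in Eed-null. The Eed-null sum therefore includes an Apoa4 value that the wild-type sum lacks, so the sums understate the lower values of most other enterocyte markers. Alpi had 633 against 986 RPKM, Sis 733 against 1127, Fabp1 7147 against 8625, Fabp2 7122 against 13528 and Apoa1 7097 against 8003 RPKM. Krt20 went the other way, with 1600 against 1430.5 RPKM. The 4 Paneth cell markers summed to 6107 against 5955 RPKM. The mesenchymal and endothelial lists summed to at most 2.21 RPKM in either group. The part of these cells in the members' values was not tested.

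Placed on 1 scale by the factor 1.16193 that relates the wild-type villus values of the tables, Eed-null villus held the members at a median of 13.3% of their ISC level, from 4.73% for Pold1 to 55.2% for Gins4. ISC had the highest value for all 42 members, and 38 had ISC highest and Eed-null villus lowest. The exceptions to that order were Rrm2, Cdc6, Gins3 and Ccne1. This order joins values of separately scaled tables and has no test. Its count of 38 follows from the directions within each comparison, since a constant factor leaves them unchanged.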

How the data were processed

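RNA was sequenced from 9 libraries in 3 groups of 3, as 75 bp single-end reads from TruSeq V2 libraries, per the labels' protocols. For each gene the deposited tables hold 1 RPKM value per group, a unit named in the first table's header. The second table names no unit, and its wild-type villus values equal those of the first divided by 1.16193 (range 1.16192 to 1.16194 over 10353 genes). The submitters' processing notes list Bowtie, Cuffdiff, TopHat2 2.0.6 and Cufflinks 2.0.1, without roles, and build mm9. Both tables also carry the authors' p-value and q-value columns. Adjusting those p-values by Benjamini-Hochberg over tested genes returned the q-values to within 8.02e-05.

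Folds and differences of log2(RPKM + 1) were computed from the deposited RPKM with Python 3.11.15 and pandas 2.3.3, and the adjustment was tested on simulated data. The depth per library is unknown, no model was fitted, and each group's libraries are labelled as biological replicates. The entry naming no gene was left out of each table. The members, lists, motifs and alternatives were chosen with earlier results of these data known. All members are described. Of the other lists, every gene called in the Eed-null comparison, the 3 called genes with the largest difference in each direction between ISC and villus, and Rrm2b, Tk2, Rfc1, Ccna2 and Mki67 were named. The result for 1 further fixed gene is not reported here. Locus partners and markers were named after their values were seen. Older symbols were matched through a GRCm38.p6 table used for names. Promoter sequences are from RefSeq, and 1892 of 1892 overlapping pairs on opposite strands were reverse complements.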

Additional observations from a re-analysis of the deposited data

How the results depend on the processing

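The count of 41 members called higher in ISC became 40 at q at or below 0.01, 35 of 35 without members that share a locus entry, and 41 at q at or below 0.1, with 1 RPKM in the higher group, with a 1.5-fold minimum and with q recomputed over genes at 1 RPKM in a group. In the Eed-null comparison 0 members were called in either direction under each of these 6 alternatives. The stricter q, the level and fold minimums and the removal of shared entries can only take calls away. Only q at or below 0.1 and the recomputed q could have added any. The median difference of the members between ISC and villus, 2.10 on the log2(RPKM + 1) scale, was 2.43 with a pseudocount of 0.1 and 1.39 with a pseudocount of 5; by its construction a larger pseudocount shrinks differences between low values. The median between Eed-null and wild-type villus, -0.25, was -0.35 with a pseudocount of 0.1, -0.13 with a pseudocount of 5 and -0.14 when centred on the median gene. Centring turned the direction of the log2 ratio in the Eed-null comparison for Gins4 (0.0144), Ssbp1 (0.0522) and Cdc25a (0.0788), none of which was called. At q at or below 0.01, Gins4, Rrm2b, Tk2 and Cdc25a lost their call in the ISC comparison and Prps2, Tfam, Ccdc111, E2f8 and Mki67 in the Eed-null comparison. No paired analysis was possible because the tables hold 1 value per group, and for the same reason no library could be left out. The unknown depth and spread limit what can be said of small differences.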
